A study of Mus musculus with 8 samples.

Results

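The genes of cholesterol and fatty acid synthesis were followed in Neuro2a cells, a mouse neuroblastoma line grown in medium with fetal bovine serum, as 37 named genes of the 55367 in the count table. They were chosen by name and function, but with earlier results of these data known, so shares of changed genes among them are descriptions. They comprise 19 enzymes of the mevalonate and sterol pathway, 5 genes of the SREBP control system and 7 genes of lipogenesis. The other 6 act in cholesterol uptake, transport and efflux. The study used CRISPR activation (CRISPRa), in which a Cas9 without cutting activity carries the activator VP64 to a site set by a single guide RNA (sgRNA). CRISPRa cells were transfected with an sgRNA plasmid (750 ng) and a plasmid for sadCas9-VP64 (750 ng). The control, called no sgRNA, had only sadCas9-VP64, in an amount that is not stated. Both groups therefore carry the activator, and the guide's target and the presence of a further plasmid cannot be told apart. Counts of poly(A)-enriched RNA were analysed for 6 of the 8 labelled samples: replicates 2, 3 and 5 of CRISPRa and replicates 2, 3 and 4 of no sgRNA. Library values are given in that order throughout. Nothing in the labels says that replicates were separate cultures, so the p-values measure the spread between these libraries.

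Cholesterol is built from acetyl-CoA. Early enzymes make mevalonate and then isoprenoid units, which are joined to farnesyl pyrophosphate and squalene, and later enzymes close squalene to lanosterol and trim lanosterol to cholesterol. SREBP transcription factors are held in the endoplasmic reticulum by SCAP and the INSIG proteins while sterol is plentiful, and are released and cleaved to activate these genes when it is not. SREBP-1 is best known for fatty acid synthesis and SREBP-2 for sterol synthesis, while liver X receptors answer oxysterols and turn on cholesterol efflux. Neuroblastoma cells, like other dividing cells, can make sterols and take them up from serum.

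Of the 37 genes, 36 had enough counts to be tested. In the CRISPRa libraries 12 fell, 2 rose and 22 did not pass, at an adjusted p under 0.05 in edgeR's quasi-likelihood test. The 14 changed genes are 38.9% of those tested, beside 18.7% of all 15117 genes tested. By direction the background was 9.25% lower and 9.47% higher. The median log2 fold change was -0.23 over the 36 genes and -0.01 over all genes, and 27 of the 36 fold changes were negative. Without no sgRNA replicate 4 the median was -0.13 with 9 genes changed, without CRISPRa replicate 5 it was -0.16 with 10 changed, and on replicates 2 and 3 of both groups alone it was -0.08 with 10 changed. None of the 36 fold changes was large: on the log2 scale they ran from -1.09 to 0.37. In 19 of the 36 genes the ranges of the 2 groups did not overlap, 16 of them lower and 3 higher in CRISPRa. Over all genes tested 36.4% did not overlap, 18.7% lower and 17.7% higher. In the authors' deposited table, which draws on all 8 samples, 11 of the genes were lower and 1 was higher at an adjusted p under 0.05, beside 28.6% of the genes with an adjusted p in that table. Of the 14 genes, 12 were past the threshold in both.

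**Figure D1:**
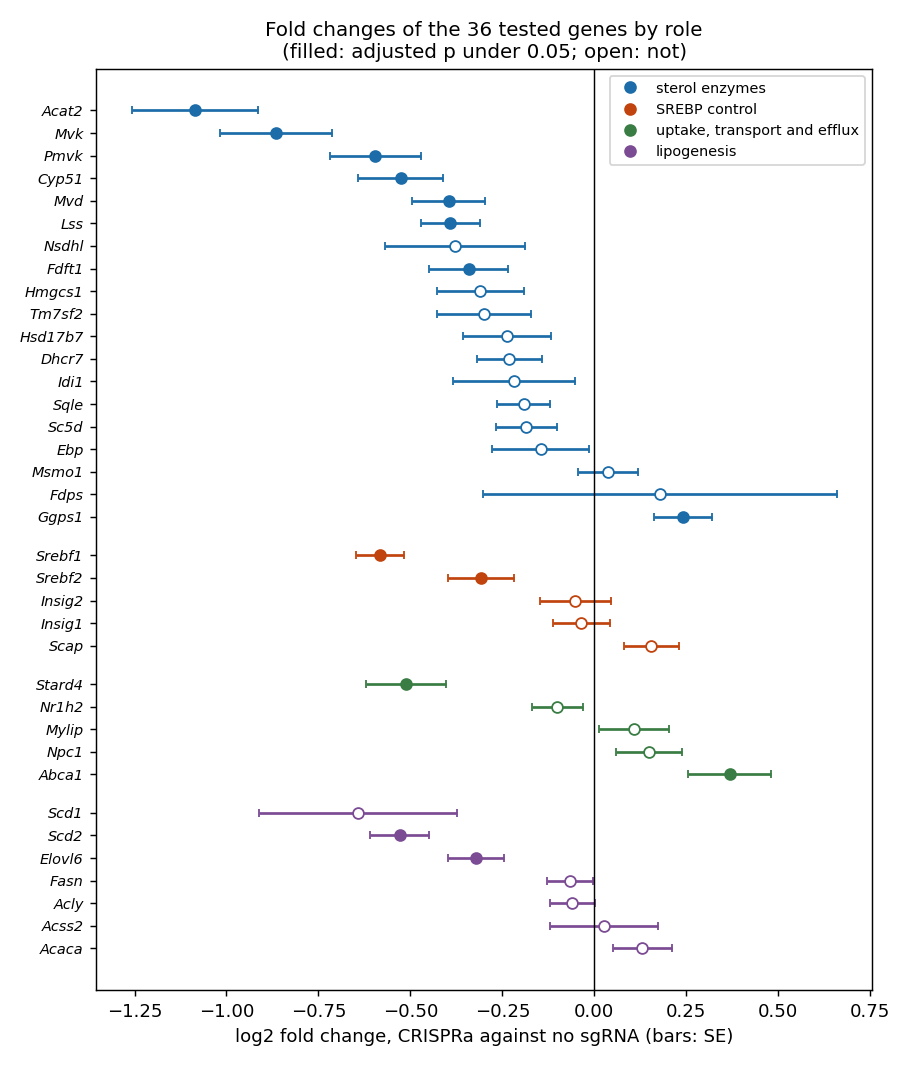
Log2 fold change of each of the 36 tested genes, CRISPRa against no sgRNA, with its standard error as a bar, grouped and coloured by role. Filled points are the 14 genes past an adjusted p of 0.05, of which 12 lie left of 0 and Ggps1 and Abca1 lie right.

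A library held 29739422 to 34248514 counts, and 3 counts correspond to 0.0871 to 0.101 CPM (the count scaled to library size). Intervals and limits of this kind cover counting error only. Of the counts from 1 to 10, 73.6 to 75.1% were even. The cause was not tested, and with all counts halved the same 14 of the 36 genes passed. Scn2a, the gene at which the series is directed, had 267, 279 and 231 counts in CRISPRa and 190, 193 and 130 in no sgRNA, with an adjusted p of 0.0899. All 16 of 16 interferon-stimulated genes were higher in CRISPRa, with a median log2 fold change of 5.22 and a summed level of 2102 to 2498 CPM against 154 to 163 CPM. Of the 12 neuroblastoma markers tested, 2 were higher and 2 lower. The markers of this list summed to 2282 to 2565 CPM in CRISPRa and 2508 to 2702 CPM in no sgRNA. Of 5 fat-cell markers Adipoq, Cidec and Lep were at 0 counts in all 6 libraries, Fabp4 had 2 counts in 1 library, and Plin1 had 4 to 23 counts (log2 fold change 0.43, adjusted p = 0.684). The 5 summed to 0.306 to 0.709 CPM in CRISPRa and 0.131 to 0.506 CPM in no sgRNA. Of 5 liver markers Apoa1 and Serpina1a were at 0 in all libraries and no other passed 10 counts in any. The 5 fibroblast markers summed to 14.6 to 21.4 CPM in CRISPRa and 28.6 to 32.4 CPM in no sgRNA, with Col1a2 (-0.88, adjusted p = 0.00659) and Pdgfra (-0.70, adjusted p = 0.00172) lower. Col1a1 (0.75, adjusted p = 0.435) and Dcn (-0.50, adjusted p = 0.465) did not pass, and Lum had 4 counts in 1 library and 0 in the others. The part of the interferon genes and of the fibroblast markers in the results that follow was not tested.

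Taken as 1 pool, the 37 genes held 0.581%, 0.577% and 0.505% of all counts in CRISPRa and 0.664%, 0.679% and 0.706% in no sgRNA. All 3 CRISPRa libraries were below all 3 controls, and the ratio of the group means was 0.811. The lipogenesis genes made up the largest share, 0.324% ± 0.0239 (SD, n = 3) against 0.405% ± 0.00660 (SD, n = 3). Sterol enzymes summed to 0.0978% ± 0.00854 (SD, n = 3) against 0.120% ± 0.0118 (SD, n = 3), also without overlap. The uptake, transport and efflux genes summed to 0.0253% ± 0.000298 (SD, n = 3) and 0.0259% ± 0.000819 (SD, n = 3), which overlapped. In bulk RNA, fewer cells with a transcript and less of it per cell cannot be told apart.

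Per length, Scd2 stood far above the rest. Its TPM, the count scaled to exon length and library size, was 1650 ± 58.4 in no sgRNA and 1193 ± 129 in CRISPRa (SD, n = 3 each). Next in order in the controls came the citrate-cleaving enzyme gene Acly at 337 TPM, Srebf2 at 308 TPM, Srebf1 at 278 TPM and Fasn at 257 TPM. In the controls 9 of the 37 genes were over 100 TPM, 24 lay from 10 to 100 TPM, and Acss2, Scd1, Fdps and Abcg1 were under 10 TPM. Neighbours in this order were often alike: 13 of the 36 neighbouring pairs had ranges over the control libraries that did not overlap, and 23 pairs did overlap. Scd2 alone took 37.5% ± 0.902 of the counts of the 37 genes in no sgRNA and 32.4% ± 1.11 in CRISPRa (SD, n = 3 each). Without it the other 36 genes held 0.427% ± 0.0101 of all counts in no sgRNA and 0.374% ± 0.0229 in CRISPRa (SD, n = 3 each).

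**Figure D2:**
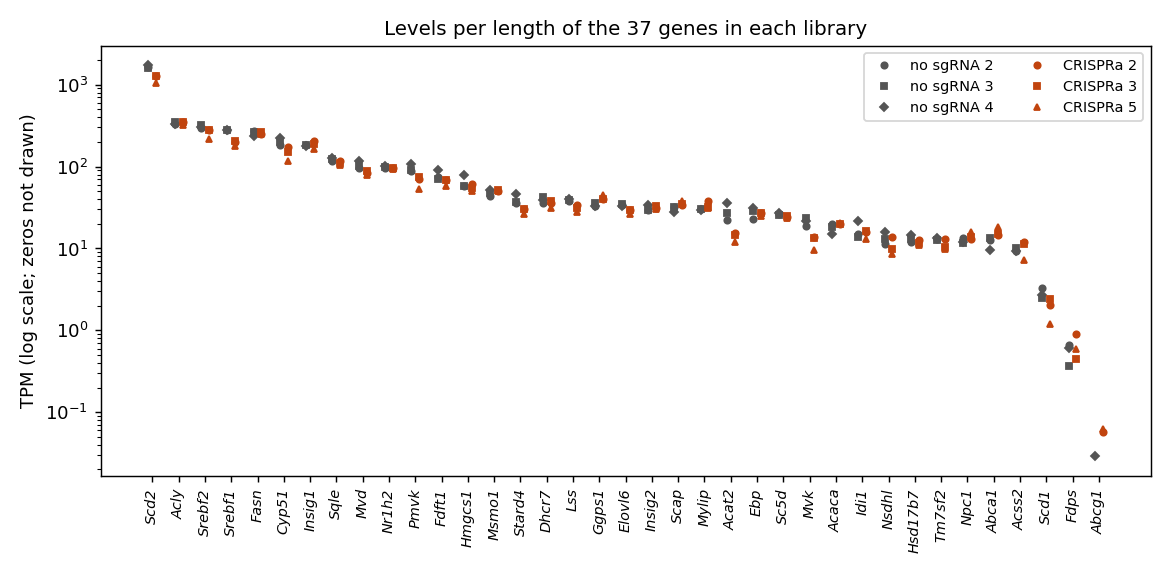
Level of each of the 37 genes in TPM on a log axis, ordered by the mean of the no sgRNA libraries, with 1 point per library (grey, no sgRNA; orange, CRISPRa) and zeros not drawn. Scd2 leads at 1650 TPM in the controls, and Scd1, Fdps and Abcg1 stand at the low end, apart from the rest.

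Among the 19 mevalonate and sterol enzymes 7 fell, 1 rose and 11 did not pass. The median log2 fold change of the 19 was -0.30, and 16 were negative. Split by stage, a division made after the values were seen, 4 of the 8 enzymes that lead to farnesyl and geranylgeranyl pyrophosphate fell and 1 rose. Of the 3 that make squalene and turn it into lanosterol (Fdft1, Sqle and Lss) 2 fell, and after lanosterol 1 of 8 fell. The medians of the 3 stages were -0.35, -0.34 and -0.23 on the log2 scale.

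Acat2, which encodes the cytosolic thiolase that joins acetyl-CoA units at the head of the pathway, had the largest decrease. Its level was 10.8, 10.1 and 8.45 CPM in CRISPRa and 15.9, 19.4 and 27.1 CPM in no sgRNA. Every CRISPRa library was below every control, and the controls themselves spread widely. The log2 fold change was -1.09 (SE 0.17, adjusted p = 0.000524), a decrease of 52.9%. Acat2 lies at chr17:12942890-12960747 on the minus strand (mm10), and 39.1% of its 50-base words also occur in the neighbouring paralog Acat3. Acat3 had 4 to 14 counts in every library, against 274 or more for Acat2, and how reads that match both were counted is not stated.

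Hmgcs1 encodes the synthase that makes HMG-CoA, and its decrease did not pass the test. It stood at 77.2, 68.4 and 63.0 CPM in CRISPRa and 75.2, 76.2 and 107 CPM in no sgRNA, so that no sgRNA replicate 4 was high and the groups overlapped. The log2 fold change was -0.31 (SE 0.12, adjusted p = 0.0845). On replicates 2 and 3 of both groups alone it was -0.05 (adjusted p = 0.675). Over all alternatives the adjusted p of Hmgcs1 ran from 0.0027, with no filter on low counts, to 0.675.

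Mvk, Pmvk and Mvd encode the mevalonate kinase, phosphomevalonate kinase and decarboxylase, which act in sequence, and all 3 fell. Mvk measured 10.1, 9.86 and 7.03 CPM in CRISPRa and 14.2, 17.8 and 17.2 CPM in no sgRNA (log2 fold change -0.86, SE 0.15, adjusted p = 0.00119). Pmvk measured 33.1, 35.1 and 24.9 CPM against 42.3, 43.8 and 54.6 CPM (-0.60, SE 0.12, adjusted p = 0.00403). Mvd measured 42.8, 45.3 and 39.9 CPM against 49.4, 53.9 and 65.0 CPM (-0.40, SE 0.10, adjusted p = 0.0113). In each of the 3 genes CRISPRa replicate 5 was the lowest library, and the groups did not overlap. Without no sgRNA replicate 4 the decrease of Mvd no longer passed (-0.28, adjusted p = 0.051; 0.000327 to 0.0532 over all alternatives), while those of Mvk and Pmvk passed in each of 6 fits that left out 1 library. On mm10 the genes lie at chr5:114444269-114460591 (Mvk, plus strand), chr3:89454541-89469013 (Pmvk, plus strand) and chr8:122433601-122443422 (Mvd, minus strand).

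Farther along, the isoprenoid enzymes differed among themselves. Idi1, the isomerase that interconverts the isoprenoid units, held 15.1, 15.9 and 12.6 CPM in CRISPRa and 14.6, 13.8 and 22.3 CPM in no sgRNA. The groups overlapped (log2 fold change -0.22, adjusted p = 0.401), and without no sgRNA replicate 4 the value was 0.03. Fdps, the farnesyl pyrophosphate synthase gene, was nearly absent from the counts, with 36, 17 and 22 counts in CRISPRa and 24, 13 and 24 in no sgRNA. Its level of 0.549 TPM in the controls was far under those of Idi1 (16.8 TPM) and Fdft1 (78.6 TPM), the enzymes before and after it. Of its exonic bases 26.7% overlap Gm43738 on the same strand, so its count is uncertain.

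Ggps1, which makes geranylgeranyl pyrophosphate for protein prenylation and so leads away from sterols, was the sterol-group gene that rose. It measured 52.3, 52.8 and 58.2 CPM in CRISPRa and 43.6, 48.6 and 45.9 CPM in no sgRNA, without overlap. Its log2 fold change was 0.24 (SE 0.08, adjusted p = 0.0466). This call was lost in all 6 fits that left out 1 library, with adjusted p from 0.0606 to 0.147. Over all alternatives its adjusted p ran from 0.0294 to 0.147. In the authors' deposited table, over 8 samples, its log2 fold change was 0.22 (adjusted p = 0.00436). Of its exonic bases 5.44% overlap Arid4b on the opposite strand, which rose by 0.26 (adjusted p = 0.0247), and whether the counting used strand is unknown. Ggps1 lies at chr13:14050659-14063488 on the minus strand (mm10).

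Fdft1, the squalene synthase gene and the first step committed to sterols, fell. It stood at 77.2, 77.0 and 65.6 CPM in CRISPRa and 84.6, 81.8 and 112 CPM in no sgRNA. The groups did not overlap, but the closest libraries were near each other, and the log2 fold change was -0.34 (SE 0.11, adjusted p = 0.0379). The call held in 2 of the 6 fits that left out 1 library: it was lost without CRISPRa replicate 2 (adjusted p = 0.0556), CRISPRa replicate 3 (0.061), CRISPRa replicate 5 (0.138) or no sgRNA replicate 4 (0.173, at a log2 fold change of -0.18). On replicates 2 and 3 alone the log2 fold change was -0.11 (adjusted p = 0.271), and over all alternatives the adjusted p ran from 0.000576 to 0.302. In the authors' deposited table its adjusted p was 0.1084. Of its exonic bases 18.8% overlap Ctsb on the opposite strand, and Ctsb rose by 0.47 (adjusted p = 7.27e-05).

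Sqle, which encodes squalene epoxidase, lay lower in CRISPRa without passing the test. Its libraries held 180, 170.5 and 158 CPM against 180, 192 and 209 CPM, with the groups just apart (log2 fold change -0.19, SE 0.07, adjusted p = 0.077). Lss, the cyclase that forms lanosterol, fell: 102, 91.3 and 82.4 CPM in CRISPRa against 114, 120 and 127 CPM. The groups were well separated, and the log2 fold change was -0.39 (SE 0.08, adjusted p = 0.00344), a decrease of 23.8%. Lss lies at chr10:76531588-76557138 on the plus strand (mm10).

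Cyp51, the cytochrome that removes the first methyl group from lanosterol, was the 1 enzyme after lanosterol that fell. It measured 208, 184 and 142 CPM in CRISPRa and 229, 249 and 291 CPM in no sgRNA. No library crossed between the groups, and both groups spread (log2 fold change -0.53, SE 0.11, adjusted p = 0.00524). On replicates 2 and 3 alone the decrease was smaller and still passed (-0.28, adjusted p = 0.00151), and over all alternatives the adjusted p ran from 1.44e-11 to 0.0312. Cyp51 lies at chr5:4081145-4104746 on the minus strand (mm10).

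The other 7 enzymes after lanosterol did not pass. The reductases Tm7sf2 and Dhcr7 and the desaturase Sc5d had log2 fold changes of -0.30 (adjusted p = 0.123), -0.23 (0.0869) and -0.18 (0.141). Nsdhl and Hsd17b7, which act in the removal of further methyl groups, stood at -0.38 (adjusted p = 0.191) and -0.24 (0.193). The isomerase gene Ebp was at -0.15 (adjusted p = 0.488). Msmo1, the methylsterol oxidase gene, measured 84.9, 87.1 and 85.1 CPM in CRISPRa within the control range of 74.3 to 93.7 CPM, with a log2 fold change of 0.04 (SE 0.08, adjusted p = 0.80). In Tm7sf2 and Sc5d the groups did not overlap.

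The decreases of the sterol enzymes were not even across libraries. CRISPRa replicate 5 was the lowest of its group in 16 of the 19 enzymes, against 37.4% of all genes tested. No sgRNA replicate 4 was the highest of its group in 15 of the 19, against 38.3% of all genes. Without CRISPRa replicate 5 the median of the 19 was -0.20 on the log2 scale with 6 changed, and without no sgRNA replicate 4 it was -0.18 with 5 changed. On replicates 2 and 3 of both groups alone the median was -0.11, with 14 of 19 negative and 5 changed. Acat2, Mvk, Pmvk, Lss and Cyp51 passed in each of the 6 fits that left out 1 library.

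**Figure D3:**
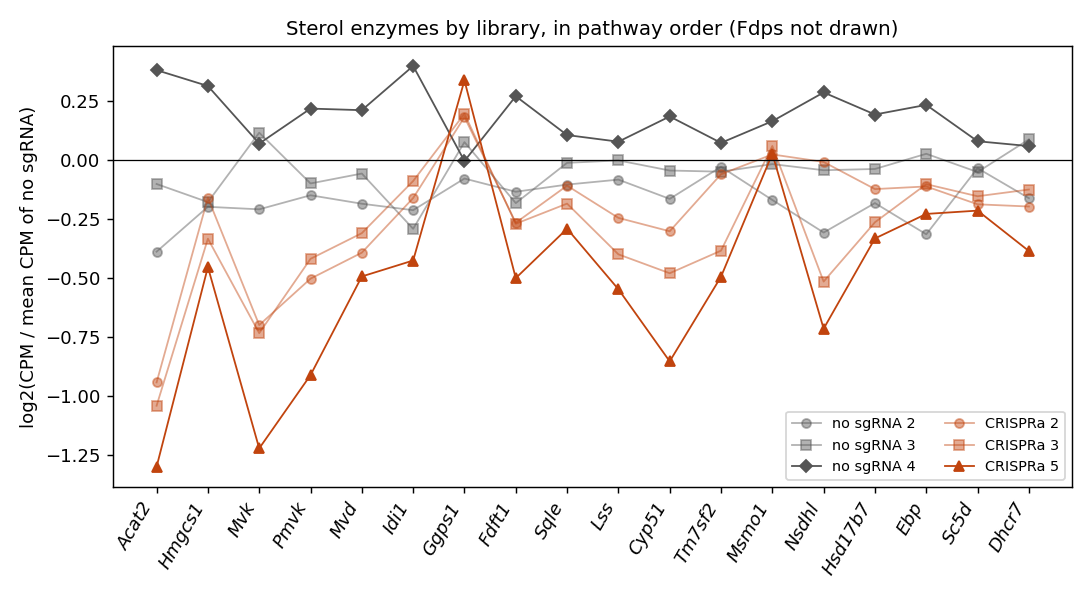
Log2 of each library's CPM over the mean CPM of the no sgRNA libraries for 18 sterol enzymes in pathway order, joined by a line for each library only to guide the eye (Fdps is not drawn because of its low counts). CRISPRa replicate 5 runs along the bottom and no sgRNA replicate 4 along the top for most enzymes, and Ggps1 is the gene where the CRISPRa libraries stand above the controls.

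SREBP-2 acts on sterol genes together with the factors NF-Y and Sp1, so the letters of their motifs were searched in the promoters, on both strands: TCACNCCAC for the sterol regulatory element, CCAAT for the NF-Y box and GGGCGG for the GC box that Sp1 binds. RefSeq start sites of GRCm38.p6 were found for 29 of the 37 genes, with windows from 250 bases before to 50 after the start. CCAAT occurred in 23 of the 29 genes (79.3%) and in 41.1% of 27025 genes. GGGCGG occurred in 23 of the 29 (79.3%) and in 38.2% of all genes. For each of these motifs the share was 8 of 11 among the changed genes with a window and 15 of 18 among those tested and not changed. TCACNCCAC in this exact spelling occurred in 1 of the 29 genes, Hmgcs1, and in 1.44% of all genes. A match is a description of letters, and its absence says only that those letters are not in the window. Each of the promoters below is the 200 bases just before the RefSeq start, 5′ to 3′ on the gene's strand and free of annotated exons, with every match in capitals. Different motifs do not overlap in them. They show Hmgcs1 for its sterol regulatory element and Mvk, Pmvk and Mvd as consecutive enzymes that fell.
Hmgcs1: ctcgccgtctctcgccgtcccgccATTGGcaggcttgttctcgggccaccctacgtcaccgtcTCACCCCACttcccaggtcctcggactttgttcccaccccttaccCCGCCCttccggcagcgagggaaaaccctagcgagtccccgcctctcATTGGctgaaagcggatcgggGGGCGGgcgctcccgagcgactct
Mvk: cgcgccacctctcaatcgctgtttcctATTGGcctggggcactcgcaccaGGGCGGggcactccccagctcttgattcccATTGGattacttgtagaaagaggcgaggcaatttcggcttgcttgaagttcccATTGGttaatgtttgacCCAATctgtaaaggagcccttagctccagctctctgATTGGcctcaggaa
Pmvk: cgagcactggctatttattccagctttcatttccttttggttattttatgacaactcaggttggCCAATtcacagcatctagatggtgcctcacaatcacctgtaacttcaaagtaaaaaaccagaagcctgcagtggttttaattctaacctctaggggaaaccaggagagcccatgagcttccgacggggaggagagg
Mvd: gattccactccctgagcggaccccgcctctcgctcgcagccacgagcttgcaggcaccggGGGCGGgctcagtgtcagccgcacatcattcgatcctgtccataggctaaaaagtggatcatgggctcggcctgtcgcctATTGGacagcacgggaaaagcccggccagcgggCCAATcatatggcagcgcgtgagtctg

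The Hmgcs1 stretch is chr13:119690151-119690350 on the plus strand, and its TCACCCCAC begins 137 bases before the start, between CCAAT boxes read on the other strand as ATTGG. Mvk (chr5:114444069-114444268, plus strand) holds 5 CCAAT boxes, 4 of them as ATTGG. Pmvk (chr3:89454341-89454540, plus strand) holds 1, and Mvd (chr8:122443423-122443622, minus strand) holds 2 beside a GC box. These 3 genes, with 1 to 5 boxes, fell, and Hmgcs1, with all 3 motifs, did not pass. Whether the motifs bear on the changes was not tested.

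In the SREBP control system both transcription factor genes fell and the 3 genes of the retention machinery did not pass. Srebf1 measured 308, 314 and 276 CPM in CRISPRa and 439, 442 and 463 CPM in no sgRNA. Controls and CRISPRa libraries were each tight and far apart. The log2 fold change was -0.58 (SE 0.07, adjusted p = 2.37e-05), a decrease of 33.2%, and it was the smallest adjusted p among the 36 genes. The value held on replicates 2 and 3 alone (-0.50, adjusted p = 3.08e-08), and over all alternatives the adjusted p ran from 1.99e-15 to 0.000425. Srebf1 lies at chr11:60199089-60222581 on the minus strand (mm10). The counts do not separate its SREBP-1a and SREBP-1c transcripts.

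Srebf2 stood at 557, 552 and 425 CPM in CRISPRa and 596, 652 and 651 CPM in no sgRNA. No library crossed between the groups, and CRISPRa replicate 5 was far below its group. The log2 fold change was -0.31 (SE 0.09, adjusted p = 0.026). It passed in 3 of the 6 fits that left out 1 library, and was lost without CRISPRa replicate 5 (-0.18, adjusted p = 0.0672), no sgRNA replicate 3 (-0.29, 0.101) or no sgRNA replicate 4 (-0.29, 0.0705), within a range of 9.19e-05 to 0.101 over all alternatives. Per length the ratio of Srebf2 to Srebf1 was 1.42, 1.38 and 1.21 in CRISPRa and 1.07, 1.16 and 1.10 in no sgRNA, higher in every CRISPRa library.

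Scap, the escort protein gene, measured 70.0, 71.5 and 77.5 CPM in CRISPRa and 67.3, 67.9 and 61.4 CPM in no sgRNA, just without overlap (log2 fold change 0.16, SE 0.07, adjusted p = 0.17). Insig1, itself a known SREBP target that retains SCAP, stood at 173, 158 and 139 CPM in CRISPRa and 157, 160 and 166 CPM in no sgRNA. The groups overlapped, and the log2 fold change was -0.04 (SE 0.08, adjusted p = 0.801). Insig2 had a log2 fold change of -0.05 (SE 0.10, adjusted p = 0.765). The ratio of Insig1 to Insig2 per length was 5.86 ± 0.590 in CRISPRa and 5.84 ± 0.495 in no sgRNA (SD, n = 3 each).

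Of the 6 uptake, transport and efflux genes 5 were tested, and 1 fell and 1 rose. Stard4, a soluble carrier that moves sterol between membranes and a known SREBP target, fell. It held 46.8, 46.1 and 40.1 CPM in CRISPRa and 55.8, 58.1 and 75.7 CPM in no sgRNA. The groups were separate, with no sgRNA replicate 4 high (log2 fold change -0.51, SE 0.11, adjusted p = 0.00435), and the call held in each of 6 fits that left out 1 library.

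Abca1, the transporter that exports cholesterol and a known liver X receptor target, rose. It measured 41.1, 42.5 and 51.4 CPM in CRISPRa and 36.4, 39.0 and 29.3 CPM in no sgRNA. The groups did not overlap, but the gap was narrow beside the rise of CRISPRa replicate 5 and the low no sgRNA replicate 4. Its log2 fold change was 0.37 (SE 0.11, adjusted p = 0.0333). The call was lost without CRISPRa replicate 5 (0.27, adjusted p = 0.125), no sgRNA replicate 2 (0.40, 0.0602) or no sgRNA replicate 4 (0.26, 0.131), and on replicates 2 and 3 alone the value was 0.15 (adjusted p = 0.251). Its adjusted p ran from 0.00169 to 0.251 over all alternatives. In the authors' deposited table Abca1 had an adjusted p of 0.06533. Abca1 lies at chr4:53030787-53159895 on the minus strand (mm10).

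Abcg1, another efflux transporter and liver X receptor target, was not tested. It had 4, 0 and 4 counts in CRISPRa and 0, 0 and 2 in no sgRNA. A change within such low counts was not detectable at this depth. Npc1, which moves cholesterol out of lysosomes, had a log2 fold change of 0.15 (SE 0.09, adjusted p = 0.278). Nr1h2, the gene of liver X receptor beta, measured 89.4, 89.0 and 86.1 CPM in CRISPRa and 88.9, 94.4 and 100 CPM in no sgRNA, a log2 fold change of -0.10 (SE 0.07, adjusted p = 0.348). Mylip, the ubiquitin ligase that degrades lipoprotein receptors and is also driven by liver X receptors, was at 0.11 (SE 0.09, adjusted p = 0.471).

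Of the 7 lipogenesis genes 2 fell and 5 did not pass. Scd2, a stearoyl-CoA desaturase that makes monounsaturated fatty acids, measured 1902, 1903 and 1563 CPM in CRISPRa and 2476, 2494 and 2778 CPM in no sgRNA. The gap between the groups was wide, and CRISPRa replicate 5 was again the lowest library. The log2 fold change was -0.53 (SE 0.08, adjusted p = 0.000367), a decrease of 30.7%. Scd2 lies at chr19:44293674-44306864 on the plus strand (mm10), and 2.66% of its 50-base words also occur in Scd1.

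Scd1, the paralog on the same chromosome, was scarce in these cells: 2.73, 3.25 and 1.60 CPM in CRISPRa and 4.49, 3.43 and 3.92 CPM in no sgRNA. The groups did not overlap, and the log2 fold change of -0.64 did not pass (SE 0.27, adjusted p = 0.113). Per length Scd2 exceeded Scd1 by a factor of 674 ± 179 in CRISPRa and 593 ± 86.3 in no sgRNA (SD, n = 3 each), and these ranges overlapped. Elovl6, which lengthens saturated and monounsaturated fatty acids, fell. It held 52.4, 51.8 and 46.3 CPM in CRISPRa and 60.3, 64.1 and 63.7 CPM in no sgRNA, clearly apart (log2 fold change -0.32, SE 0.08, adjusted p = 0.00906). Elovl6 lies at chr3:129532355-129638495 on the plus strand (mm10).

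The genes of the core route from citrate to palmitate did not pass. Acly, which cleaves citrate to cytosolic acetyl-CoA, measured 502, 501 and 463 CPM in CRISPRa and 494, 523 and 510 CPM in no sgRNA (log2 fold change -0.06, SE 0.06, adjusted p = 0.552). Acaca, the acetyl-CoA carboxylase gene, was at 0.13 (SE 0.08, adjusted p = 0.293). It shares 30.4% of its 50-base words with other genes. Fasn, the fatty acid synthase gene, measured 753, 796 and 755 CPM in CRISPRa and 828, 824 and 760.0 CPM in no sgRNA, with overlap (-0.07, SE 0.06, adjusted p = 0.502). Acss2, which makes acetyl-CoA from acetate, was at 0.03 (SE 0.15, adjusted p = 0.927), and CRISPRa replicate 5 stood apart at 20.1 CPM beside 31.9 and 33.1 CPM. The desaturase and elongase genes Scd2 and Elovl6 passed while the synthesis enzymes did not. The difference between these fold changes was not tested.

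Promoters of 3 of these genes from the other groups are given for comparison with the sterol enzymes, read and marked the same way. They show Srebf1, which had the smallest adjusted p, Abca1, which rose, and Fasn, which did not pass.
Srebf1: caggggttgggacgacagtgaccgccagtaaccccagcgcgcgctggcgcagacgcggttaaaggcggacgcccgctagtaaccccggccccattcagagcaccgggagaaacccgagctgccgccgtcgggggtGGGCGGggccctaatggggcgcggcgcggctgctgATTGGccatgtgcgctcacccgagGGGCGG
Abca1: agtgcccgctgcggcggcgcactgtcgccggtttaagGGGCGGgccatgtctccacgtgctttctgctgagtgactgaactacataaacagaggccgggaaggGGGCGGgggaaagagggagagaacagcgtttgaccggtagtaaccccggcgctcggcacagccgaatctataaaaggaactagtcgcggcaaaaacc
Fasn: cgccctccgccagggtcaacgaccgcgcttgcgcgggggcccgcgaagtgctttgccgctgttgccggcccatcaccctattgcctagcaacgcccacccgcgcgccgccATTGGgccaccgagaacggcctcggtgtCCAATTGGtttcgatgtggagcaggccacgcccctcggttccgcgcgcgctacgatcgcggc

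The Srebf1 stretch (chr11:60210472-60210671, minus strand) precedes 1 of its 3 RefSeq starts and holds 1 CCAAT box and 2 GC boxes. Abca1 (chr4:53159896-53160095, minus strand) holds 2 GC boxes and no CCAAT. Fasn (chr11:120824548-120824747, minus strand) holds 3 CCAAT boxes, of which a pair on opposite strands overlap in CCAATTGG.

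**Figure D4:**
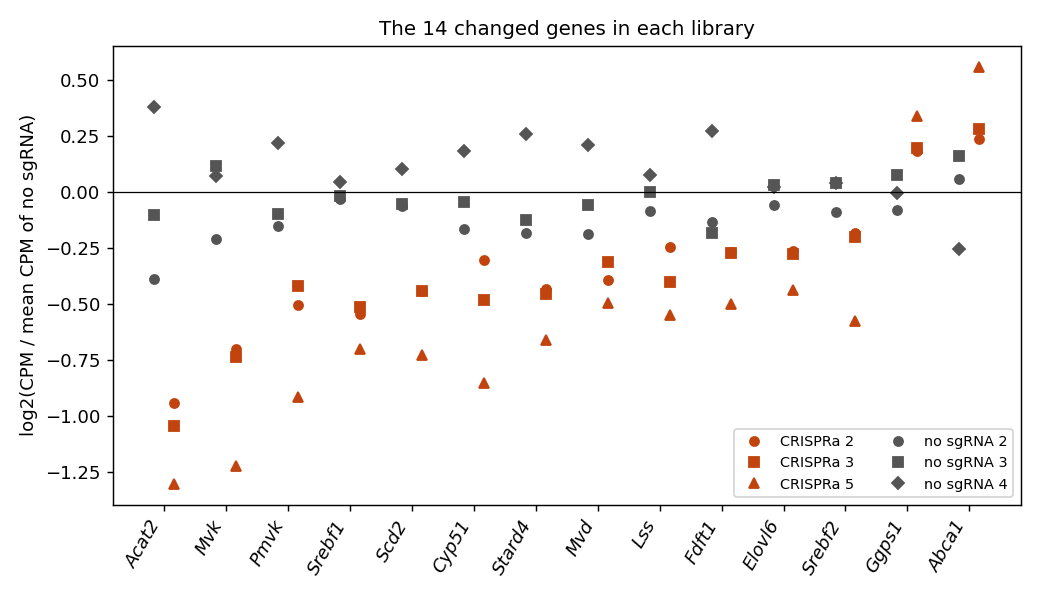
Log2 of each library's CPM over the mean CPM of the no sgRNA libraries for the 14 changed genes, with 1 point per library (orange, CRISPRa; grey, no sgRNA). Srebf1 and Elovl6 show groups that lie apart with little spread among the controls. CRISPRa replicate 5 is the lowest library in each of the 12 genes that fell. Among these, no sgRNA replicate 4 is the highest control in Acat2, Pmvk, Mvd, Fdft1, Lss, Cyp51, Srebf1, Stard4 and Scd2. It is not the highest in Mvk, Srebf2 or Elovl6.

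A wider list of 59 other genes of the same pathways, also chosen with earlier results known, was examined, of which 56 were tested. In CRISPRa 11 rose and 15 fell, 46.4% of those tested beside the 18.7% of all genes. The median log2 fold change of the list was -0.04. By role, 2 rose and 2 fell of 8 sterol genes, 3 rose and 2 fell of 9 SREBP control genes, 2 rose and 3 fell of 12 uptake and transport genes, and 4 rose and 8 fell of 25 lipogenesis genes. The 3 genes of the list with the smallest adjusted p all rose. Acsl4, which activates arachidonic and related fatty acids, measured 356, 350 and 412 CPM in CRISPRa and 204, 206 and 188 CPM in no sgRNA (log2 fold change 0.91, SE 0.07, adjusted p = 5.87e-07). Cpt1a, which admits fatty acids to mitochondria for oxidation, was at 0.67 (SE 0.07, adjusted p = 1.54e-05). Plin2, a coat protein of lipid droplets, was at 0.67 (SE 0.09, adjusted p = 8.07e-05). In all 3 genes every CRISPRa library was above every control.

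Others of the list that rose act on sterol traffic and SREBP processing. Lipa, the lysosomal acid lipase gene, rose by 0.40 (SE 0.08, adjusted p = 0.00318), and Gramd1b, which carries cholesterol from the plasma membrane, rose by 0.31 (SE 0.08, adjusted p = 0.0107). Mbtps2, a protease that cleaves SREBPs, rose by 0.35 (SE 0.06, adjusted p = 0.00113). Of its exonic bases 28.4% overlap Yy2 on the same strand. Erlin1, of the complex that restrains SREBPs, measured 76.1, 80.2 and 132 CPM in CRISPRa and 64.6, 62.3 and 61.3 CPM in no sgRNA, with CRISPRa replicate 5 far above its group (0.61, SE 0.15, adjusted p = 0.0108). With DESeq2 its adjusted p was 0.0868, the highest over the alternatives, from a low of 2.84e-12. Without CRISPRa replicate 5 the log2 fold change of Erlin1 was 0.325 (adjusted p = 0.00812).

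Among the genes of that list that fell were Tecr, a reductase of fatty acid elongation (-0.38, SE 0.06, adjusted p = 0.000834), and Fads2, a desaturase of polyunsaturated fatty acids (-0.50, SE 0.10, adjusted p = 0.00262). Me1, the malic enzyme gene that supplies NADPH to lipogenesis, measured 209, 203 and 172 CPM in CRISPRa and 235, 235 and 318 CPM in no sgRNA (-0.43, SE 0.11, adjusted p = 0.0108). Without no sgRNA replicate 4 the value for Me1 was -0.27 (adjusted p = 0.0364). The groups did not overlap in any of these 3 genes. Ch25h, the interferon-inducible enzyme that makes an oxysterol which holds back SREBP processing, had 0, 1 and 0 counts in CRISPRa and 3, 1 and 0 in no sgRNA. In each CRISPRa library Ch25h was thus below 3 counts, which correspond to 0.0871 to 0.0925 CPM there. A difference within such low counts was not detectable at this depth.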

How the data were processed

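Poly(A)-enriched RNA was sequenced, per the labels' protocols, and groups were taken from the sample titles. Alignment with STAR 2.5.1b and counting with featureCounts on mm10 are named in the submitters' processing notes. The authors deposited whole-number counts per gene for 6 of the 8 samples, with no normalisation. Strand use, multi-mapping and the annotation release are not given in the sources used here. All 37 genes have the same span in GENCODE M21 as in the deposited table. The authors' deposited table of their own comparison gives a signal (mean of normalised counts), log2 fold changes, a score (Wald statistic) and p-values over 8 samples; these were copied, not recomputed.

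Counts were tested with edgeR 4.0.16 in R 4.3.3 (glmQLFit, glmQLFTest), filterByExpr and TMM factors, with Benjamini-Hochberg adjustment over 15117 genes and a threshold of 0.05. The SE is the log2 fold change divided by the square root of F. CPM is TMM-scaled, and TPM uses the deposited exon lengths. The test was tried on simulated data. Alternatives were other scalings and filters, DESeq2 1.42.0, limma-voom (limma 3.58.1), gene-length trend removal, leaving out each library, a replicate block, thresholds of 0.01 and 0.1 and, added after the data were seen, halved counts. Promoter sequences are RefSeq's (GRCm38.p6).

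The members and lists were chosen with earlier results of these data known. All 37 genes are named, and of the wider list the 12 with the smallest adjusted p and Ch25h; values of some genes of that list are not reported here, while its counts include them. Genes that overlap or share sequence with these, and marker genes, were named after their values were seen.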

Additional observations from a re-analysis of the deposited data

How the results depend on the processing

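Of the 14 changed genes 10 passed under each of 11 alternatives (scalings, filters, tools, halved counts, libraries 2 and 3 only), 9 passed in each of 6 fits without 1 library, and none of the 14 altered its sign in these fits. The 14 calls became 9 at an adjusted p under 0.01 and 9 to 14 with 1 library left out (9 without no sgRNA replicate 4). Sterol enzymes changed were 5 at that threshold, 5 to 8 with 1 library left out and 5 on the 4 libraries numbered 2 and 3. SREBP control genes changed were 1 at that threshold and 1 to 2 with 1 library left out. Uptake and efflux genes changed were 1 at that threshold, with the gene-length trend removed, with the replicate block and on the 4 libraries, and 1 to 2 with 1 library left out. Lipogenesis kept a count of 2 in all of these. The wider list had 9 calls and all genes 1417 at 0.01. The median of the 36 genes ran from -0.311 to -0.0844.

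Signs turned in 7 genes that did not pass. With 1 library left out Idi1 ran from -0.345 to 0.0336, Fdps from -0.131 to 0.388, Msmo1 from -0.0419 to 0.128, Insig1 from -0.102 to 0.0535, Insig2 from -0.108 to 0.0497 and Acss2 from -0.0875 to 0.229. With the replicate block Idi1 was 0.128, Ebp 0.0366, Insig1 0.0683 and Insig2 0.0725, and on the same 4 libraries without it 0.128, 0.0288, 0.0696 and 0.0726. With the length trend removed Insig1 was 0.00314 and Acss2 -0.042, and with limma-voom Acss2 was -0.0029. The cause was not tested.

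Only numbers 2 and 3 are shared by the groups. Same-numbered libraries did not deviate together (correlations of -0.0276 and -0.0228), so they were not treated as pairs. The replicate block gave 11 changed genes, all lower, 6 of them sterol enzymes, against 10 on the same libraries without it. Low counts limit Fdps, Scd1, Abcg1 and Ch25h most. For Fdps the count itself is uncertain, since its exons overlap Gm43738 on the same strand, so depth alone may not set it. The other 2 labelled samples were not analysed here.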
